A study of Mus musculus with 8 samples.

Results

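Carbonic anhydrases of bone, blood and muscle are described here in RNA from the cortical bone of the femur shaft, taken on postnatal day 7 from mice with and without Slc26a2 in their osteoblasts. The set was drawn up by gene symbol and holds 6 listed genes, Car1, Car2, Car3, Car4, Car12 and Car13. A row was found for 5 of them among the 14457 genes of the table, and Car4, a membrane-anchored enzyme, was not analysed here. The set was chosen by measured values, since Car12 was noticed as the largest decrease among these genes in the conditional knockout (CKO). The difference between genotypes is therefore given for them as a description with its error and without a test.

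Slc26a2 encodes a sulfate transporter, and the study asked what changes in the bone of mice whose osteoblasts lack it. There were 4 control libraries, from mice with the genotype Col2.3kb-Cre; Slc26a2 fl/+, and 4 CKO libraries, from mice with the genotype Col2.3kb-Cre; Slc26a2 fl/fl. Both groups carried the Cre transgene and at least 1 floxed allele, so no library came from an animal without Cre. The controls were heterozygous for the floxed allele, so the comparison is not with wild-type mice. The Cre is driven by a fragment of a type I collagen promoter that is active in osteoblasts and osteocytes, and the other cells of the shaft, such as osteoclasts, blood cells and muscle, keep the gene. The labels number the libraries without saying whether each is its own animal, so any p-value covers the spread among these samples and no more. Bulk RNA was measured, so fewer cells of a type and less RNA per cell cannot be told apart.

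Carbonic anhydrases catalyse the reversible hydration of carbon dioxide to bicarbonate and a proton, with a zinc ion in the active site. Car2 is the fast cytosolic form that supplies protons to the acid-secreting membrane of osteoclasts, and its loss in humans causes osteopetrosis; it is also abundant in red cells. Car1 is a cytosolic form typical of red cells, Car3 a slow cytosolic form of slow skeletal muscle and fat, and Car13 another cytosolic form. Car12 spans the plasma membrane with its catalytic domain outside the cell, and is best known from epithelia and from hypoxic human tumours.

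In GRCm38 coordinates, 4 of the measured genes lie side by side on chromosome 3, in a cluster of 259 kb. In order, these are Car13 (14641727 to 14663002, plus strand), Car1 (14766216 to 14808368, minus strand), Car3 (14863512 to 14872523, plus strand) and Car2 (14886273 to 14900770, plus strand). Car3 and Car2 are the closest pair, with 13.7 kb between them. Car12 (ENSMUSG00000032373) stands alone on chromosome 9, at 66713686 to 66766845 on the plus strand. Only Car1 overlaps another annotated gene, the processed pseudogene Gm16399, which has no row in the table.

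The library totals were uneven. FPKM (fragments mapped to a gene, scaled by its transcript length and by all mapped fragments) summed to 352283 to 379669 in control and to 431612 to 598419 in CKO, without overlap. CKO replicate 4 stood apart, with 155 genes listed at 0 against 5 to 31 elsewhere, 2.92% of its FPKM in mitochondrially encoded genes against 9.13% to 14.8%, and 12.3% in hemoglobin genes against 0.997% to 6.25%. Slc26a2 itself was at 4.37 to 7.49 FPKM in the controls and 0.706 to 2.93 FPKM in the CKO libraries. Its means were 5.39 ± 1.42 and 1.64 ± 1.06 (SD, n = 4 each), and an exact permutation test over the 70 assignments gave a two-sided p of 0.0286, which is the lowest possible. A limma fit covered the 12748 genes that reached 1 FPKM in 4 or more libraries, and called 4.53% of them at a Benjamini-Hochberg adjusted p of 0.05. At an unadjusted p under 0.05 stood 25.3% of them, the share against which the unadjusted counts of gene lists are to be read. Of those 578 genes 495 were higher and 83 lower in CKO, whereas after quantile normalization 119 were higher and 202 lower. The calls depended on single libraries: limma called 1885 genes without CKO replicate 4, 815 without control replicate 1 and 0 without any other library (2103 to 3234 at an unadjusted p under 0.05). Rescaled to equal totals, the median log2 difference of all genes moved from 0.01 to -0.37.

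Car12 was the low-abundance member that separated the genotypes. Control replicates 1 to 4 had 8.67, 7.47, 8.06 and 5.59 FPKM of Car12, and CKO replicates 1 to 4 had 2.63, 2.11, 0.462 and 2.13 FPKM. Every CKO library lay below every control library, and CKO replicate 3 was the lowest. Mean Car12 was thus 75.4% lower in CKO, at 1.83 ± 0.945 FPKM against 7.45 ± 1.33 FPKM (SD, n = 4 each). The difference on the log2(FPKM + 1) scale, CKO minus control, was -1.64 with an SE of 0.29, which placed Car12 at rank 4 from the bottom of the 12748 genes. The authors' deposited table gives it a log2 fold change of -1.69. Without CKO replicate 3 the log2 difference was -1.35.

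The 250 bases before the annotated start of Car12, from RefSeq on GRCm38.p6 (chr9:66713436-66713685, plus strand), are shown because Car12 is the member by which the set was chosen. The capitals mark matches to a short motif on either strand.
Car12 promoter: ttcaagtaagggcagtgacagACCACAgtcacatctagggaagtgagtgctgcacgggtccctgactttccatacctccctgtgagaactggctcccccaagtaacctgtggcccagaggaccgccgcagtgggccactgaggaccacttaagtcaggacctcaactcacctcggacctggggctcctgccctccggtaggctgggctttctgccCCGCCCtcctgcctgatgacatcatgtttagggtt

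Both matches lie on the minus strand and do not overlap. One match to the core of RUNX sites, TGTGGT, begins 229 bases before the start site, and 14% of 32851 mouse promoter windows of the same length hold that motif. One match to the GC box, GGGCGG, begins 35 bases before it, and 32.7% of the windows hold it. No match was found to the hypoxia response core ACGTG (in 16.6% of windows), the GATA motif AGATAA (9.99%), the AP-1 motif TGANTCA (6.75%) or the TATA box TATAAA (12.4%). A match to such short letters is a description of the sequence and not a binding site.

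Car2 had higher values in 3 of the CKO libraries than in any control, and its lowest value of all in the remaining one. It stood at 182, 157, 122 and 88.0 FPKM in control replicates 1 to 4 and at 409, 274, 367 and 65.6 FPKM in CKO replicates 1 to 4. The groups therefore overlapped through CKO replicate 4 alone. Mean Car2 was 137 ± 41.0 FPKM in control against 279 ± 153 FPKM in CKO (SD, n = 4 each), with a log2 difference of 0.78 and an SE of 0.52. Without CKO replicate 4 the CKO mean was 350 ± 68.7 FPKM (SD, n = 3), 2.55 times the control mean, and the log2 difference was 1.38 with an SE of 0.27.

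Car1, the typical red-cell form, which lies in the same cluster with Car3 between it and Car2, had a similar but looser pattern. Its levels were 24.2, 49.95, 41.7 and 15.8 FPKM in control replicates 1 to 4, and 74.3, 56.7, 46.9 and 19.8 FPKM in CKO replicates 1 to 4. The lowest library of each genotype was replicate 4, and the groups overlapped. The means were 32.9 ± 15.6 and 49.4 ± 22.8 FPKM (SD, n = 4 each), with a log2 difference of 0.56 and an SE of 0.44, or 0.93 without CKO replicate 4.

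Car3 had the highest mean in control and showed no separation of the genotypes. The 4 control libraries, in order of replicate, held 175, 177, 243 and 294 FPKM, and the 4 CKO libraries 211, 248, 88.3 and 282 FPKM. Only CKO replicate 3 lay below the control range. The means were 222 ± 57.3 and 207 ± 84.6 FPKM (SD, n = 4 each), and the log2 difference was -0.19 with an SE of 0.37. Without CKO replicate 3 it was 0.18, so 1 library set its sign.

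Car13 had the narrowest range in control. Its control values were 2.51, 3.10, 2.73 and 2.99 FPKM, and its CKO values 3.33, 3.83, 4.33 and 0.736 FPKM, each in order of replicate. CKO replicates 1 to 3 lay above every control and CKO replicate 4 below, as for Car2. The means were 2.83 ± 0.265 and 3.06 ± 1.60 FPKM (SD, n = 4 each). The mean was thus higher in CKO, while the log2 difference was slightly below 0, at -0.04 with an SE of 0.33. It was 0.33 with an SE of 0.15 without CKO replicate 4.

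**Figure D1:**
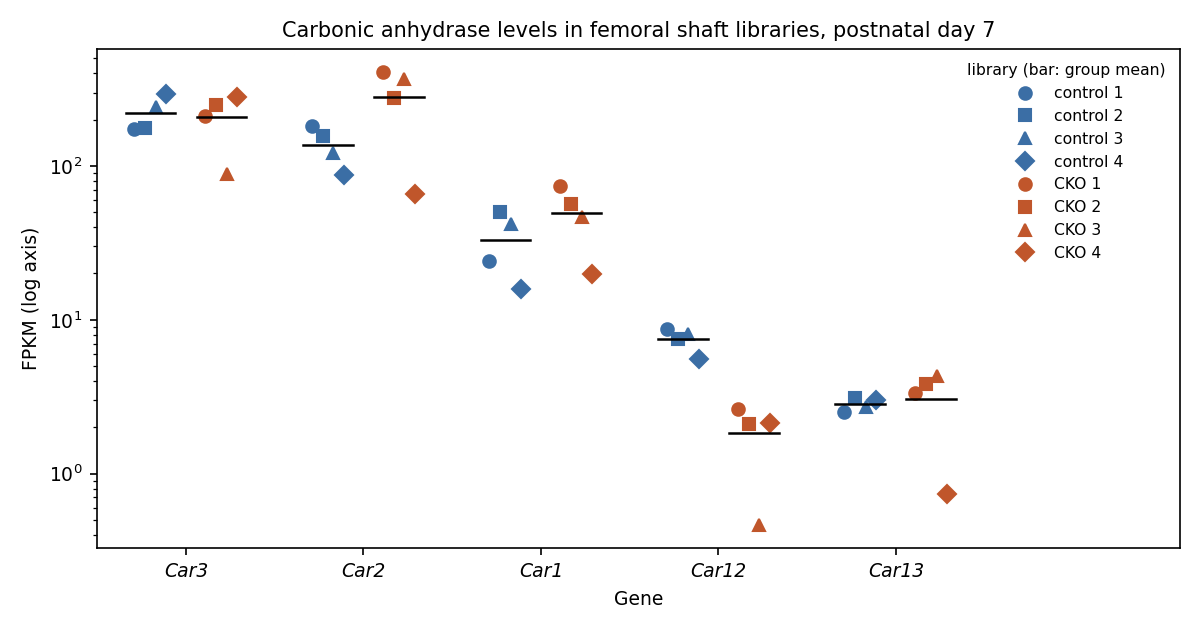
FPKM on a log axis for each of the 5 measured carbonic anhydrases, with 1 point for each library (control in blue, CKO in orange, the symbol giving the replicate) and a bar at each group mean. Car12 is the gene whose groups do not overlap, and CKO replicate 4 lies low for Car2, Car1 and Car13 at 65.6, 19.8 and 0.736 FPKM.

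All 5 measured members passed the filter on low values. Of these 1, Car12, was called by limma with all 8 libraries, against 0.651% of all genes called lower in CKO, 3.88% called higher and 4.53% called in either direction. Groups did not overlap for 1 of the 5, again Car12, against 18.7% of all genes. Since the Car12 difference chose the set, these counts carry no weight. The median of the 5 log2 differences was that of Car13, -0.04, beside 0.01 over all genes. The log2 difference of Car12 was below 0 in all 19 alternative settings, between -2.17 and -1.35. Its sign could not change on dropping a library, since its groups do not overlap. No filter, the filter of 5 FPKM and the replicate block leave its value at -1.64 by construction. The call was less stable, as limma called Car12 in 9 of these 19 settings. With 1 library dropped, it was called in 2 of 8 fits. Car2 and Car1 changed sign in 2 of 19 settings each, Car3 in 3 of 19 and Car13 in 2 of 18. With a covariate for the level of erythroid markers, the log2 differences of Car2 and Car1 were -0.16 and -0.14. Those of Car13, Car3 and Car12 were then -0.43, 0.23 and -1.68, and the median of all genes was -0.11. With equal totals, and relative to the median of all genes there, the log2 differences were -1.60 for Car12, 0.68 for Car2, 0.47 for Car1, -0.29 for Car3 and 0.01 for Car13.

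**Figure D2:**
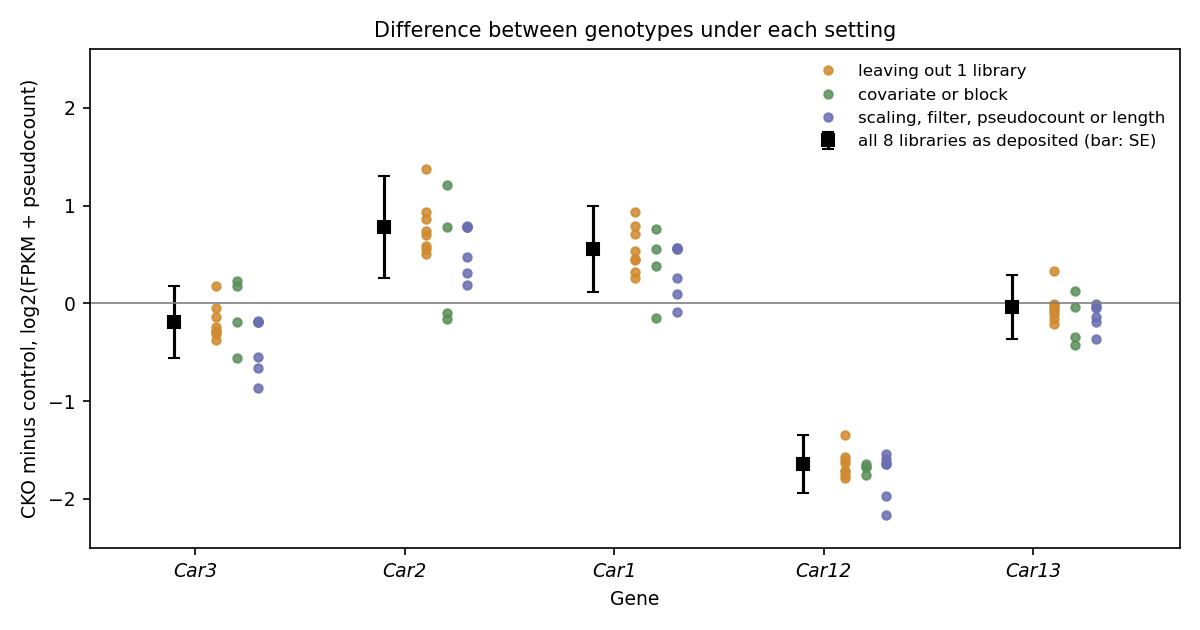
CKO minus control difference on the log2 scale for each measured gene. Black squares are the values from all 8 libraries as deposited with their SE, and coloured points are the alternative settings by kind. The points of Car12 lie between -2.17 and -1.35, and those of the other genes reach both sides of 0.

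The genotypes also differed in Y-linked transcripts, which were listed at 0 in 1 control and 3 CKO libraries. Car12 was lower in CKO within both classes of library, which had to be so, since its groups do not overlap. Among libraries without Y-linked transcripts it was at 8.67 FPKM in the control and at a mean of 1.73 FPKM in CKO, and among those with them at a mean of 7.04 FPKM in control and at 2.13 FPKM in CKO. Car2 did not keep its direction. It was at 182 FPKM in control and 350 FPKM in CKO without Y-linked transcripts, and at 122 and 65.6 FPKM with them. Each class had a single library of 1 genotype, which for the second class was CKO replicate 4, so no spread can be given within a class. With a covariate for the level of Y-linked transcripts, the log2 difference was -1.68 for Car12 (SE 0.40) and -0.09 for Car2 (SE 0.56).

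FPKM is scaled by transcript length, so levels can be compared between genes. The 5 measured members made up 98.9% to 99.5% of the summed FPKM of the 9 carbonic anhydrases in the table. In control the order of mean levels was Car3, Car2, Car1, Car12 and Car13. The ranges of Car3 and Car2 overlapped there, and the ranges of the other neighbours in that order did not. In CKO replicates 1 to 3 the order was Car2, Car3 and Car1, with Car13 above Car12, which exchanged the places of Car12 and Car13. CKO replicate 4 kept the control order of Car3, Car2, Car1 and Car12. The ratio of Car12 to Car13 was 1.87 to 3.46 in control, 0.107 to 0.791 in CKO replicates 1 to 3 and 2.90 in CKO replicate 4, where Car13 was low as well.

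The make-up of the family was also taken as shares of its summed level. The members summed to 392 to 417 FPKM in control and to 371 to 700 FPKM in CKO. The Car2 share of all carbonic anhydrase FPKM was 21.4% to 46.0% in control, and 58.1%, 46.6%, 72.0% and 17.6% in CKO replicates 1 to 4. The Car12 share was 1.36% to 2.19% in control and 0.0906% to 0.572% in CKO, without overlap. As a share of one library's FPKM, this does not depend on the scaling between libraries. It does depend on the other genes of the sum, mostly Car2 and Car3. It also repeats the Car12 difference by which the set was chosen.

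**Figure D3:**
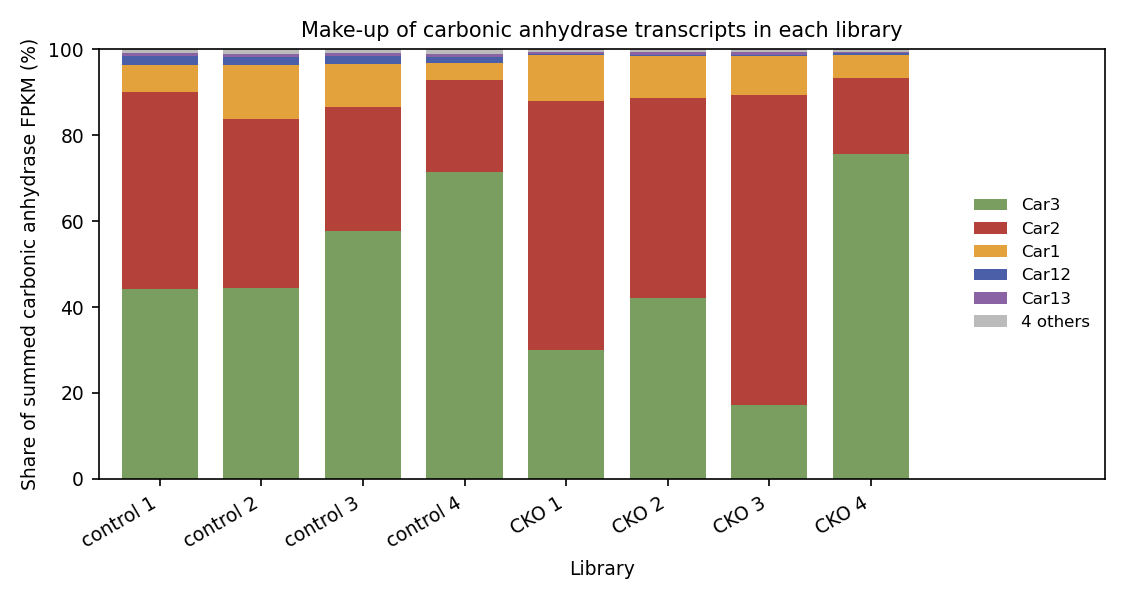
Share of the summed FPKM of the 9 carbonic anhydrases held by each gene, in percent, as stacked bars with 1 bar for each library. Car2 and Car3 together fill most of every bar, with Car2 at 72.0% in CKO replicate 3 and 17.6% in CKO replicate 4.

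The cell types that the set is named for were compared with lists of their markers in the same library. Defining markers were present: the osteoclast enzymes Ctsk and Acp5 averaged 2123 ± 535 and 1820 ± 362 FPKM in control and 2099 ± 264 and 1996 ± 299 FPKM in CKO (SD, n = 4 each). Of the 12 osteoclast genes, Ctsk and Acp5 were the 2 with log2 differences above 0; the other 10 were below 0, with a median of -0.50 over the list and 6 at an unadjusted p under 0.05, and none passed the adjusted threshold by limma. Among these were Mmp9, at 1256 ± 475 FPKM in control against 606 ± 164 FPKM in CKO, and Nfatc1, the main transcription factor of osteoclasts, at 38.1 ± 12.3 against 18.7 ± 4.43 FPKM (SD, n = 4 each; limma adjusted p = 0.122 and 0.0662). Car2 varied with the erythroid markers more closely than with those of osteoclasts. The mean log2(FPKM + 1) level of 15 erythroid genes was 4.66, 4.45, 4.15 and 3.07 in control replicates 1 to 4 and 5.46, 5.09, 5.32 and 3.77 in CKO replicates 1 to 4. The libraries fell in the same order for Car2 as for this list, except that control replicate 4 and CKO replicate 4 changed places at the bottom. Car2 minus the erythroid level had a mean of 2.98 ± 0.284 log2 units in control and 2.93 ± 0.438 in CKO (SD, n = 4 each). The SD over all 8 libraries was 0.342 for this difference, against 0.946 for Car2 alone. Car2 minus the osteoclast level had a larger SD than Car2 alone, 1.14 over the 8 libraries, and means of 0.97 ± 0.722 in control and 2.25 ± 1.18 in CKO. These points share a library and its scaling, and Car2 is in neither list.

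Car1 and Car13 were set beside the same lists. Car1 minus the erythroid level was 0.87 ± 0.595 log2 units in control and 0.60 ± 0.238 in CKO (SD, n = 4 each), and its SD over the 8 libraries was 0.444 against 0.769 for Car1 alone. Car13 minus the erythroid level had an SD of 0.694, above the 0.493 of Car13 alone, and Car13 minus the osteoclast level one of 0.567. CKO replicate 4 had the lowest Car1, Car2, Car13 and erythroid marker levels of the CKO libraries, and the highest share of hemoglobin transcripts of all 8.

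Car12 was lower in CKO also relative to osteoblast markers of the same library. The 14 osteoblast genes had a mean log2(FPKM + 1) of 8.21 to 8.46 in control and 6.95 to 7.95 in CKO, and their summed FPKM was 37265 to 46376 and 12252 to 41974. Car12 minus the osteoblast level was -5.27 ± 0.310 in control and -6.16 ± 0.190 in CKO (SD, n = 4 each), and the libraries did not overlap, at -5.68 to -4.94 and -6.41 to -5.96. Against 8 osteocyte genes the values were -1.07 ± 0.318 and -2.11 ± 0.332, also without overlap, and 1 osteocyte gene was listed at 0 in control replicate 4. This difference of a single library does not depend on the scaling between libraries beyond the pseudocount, and with a pseudocount of 0.1 the CKO minus control values were -1.40 and -1.59 in place of -0.90 and -1.05.

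Car3 moved with skeletal muscle markers over a much smaller range. The muscle list of 19 genes summed to 63.4, 208, 1402 and 3836 FPKM in control replicates 1 to 4 and to 2377, 3479, 160 and 10015 FPKM in CKO replicates 1 to 4, with no marker listed at 0. Control replicate 4 and CKO replicate 4, with the most muscle RNA, had the highest Car3, and CKO replicate 3 the lowest. Yet control replicate 1, with the least muscle RNA, still had 175 FPKM of Car3. Across the libraries Car3 ranged over 1.72 log2 units, while Car3 minus the muscle level ranged over 5.09 and Car3 minus the level of 7 slow muscle genes over 4.05. Car3 minus the level of 8 adipocyte genes, the ones with a row out of 14 listed, ranged over 1.99. The adipocyte list, led by Fabp4 and Lpl, summed to 101 to 284 FPKM in control and 248 to 354 FPKM in CKO. The likeness was not confined to muscle markers. After each genotype mean was subtracted, Pearson r of Car3 was 0.93 with the muscle, 0.94 with the slow muscle and 0.25 with the adipocyte level. It was 0.87 with the osteoblast, 0.77 with the endothelial and 0.72 with the cartilage level. The part of muscle, fat or other cells in the Car3 values was not tested.

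**Figure D4:**
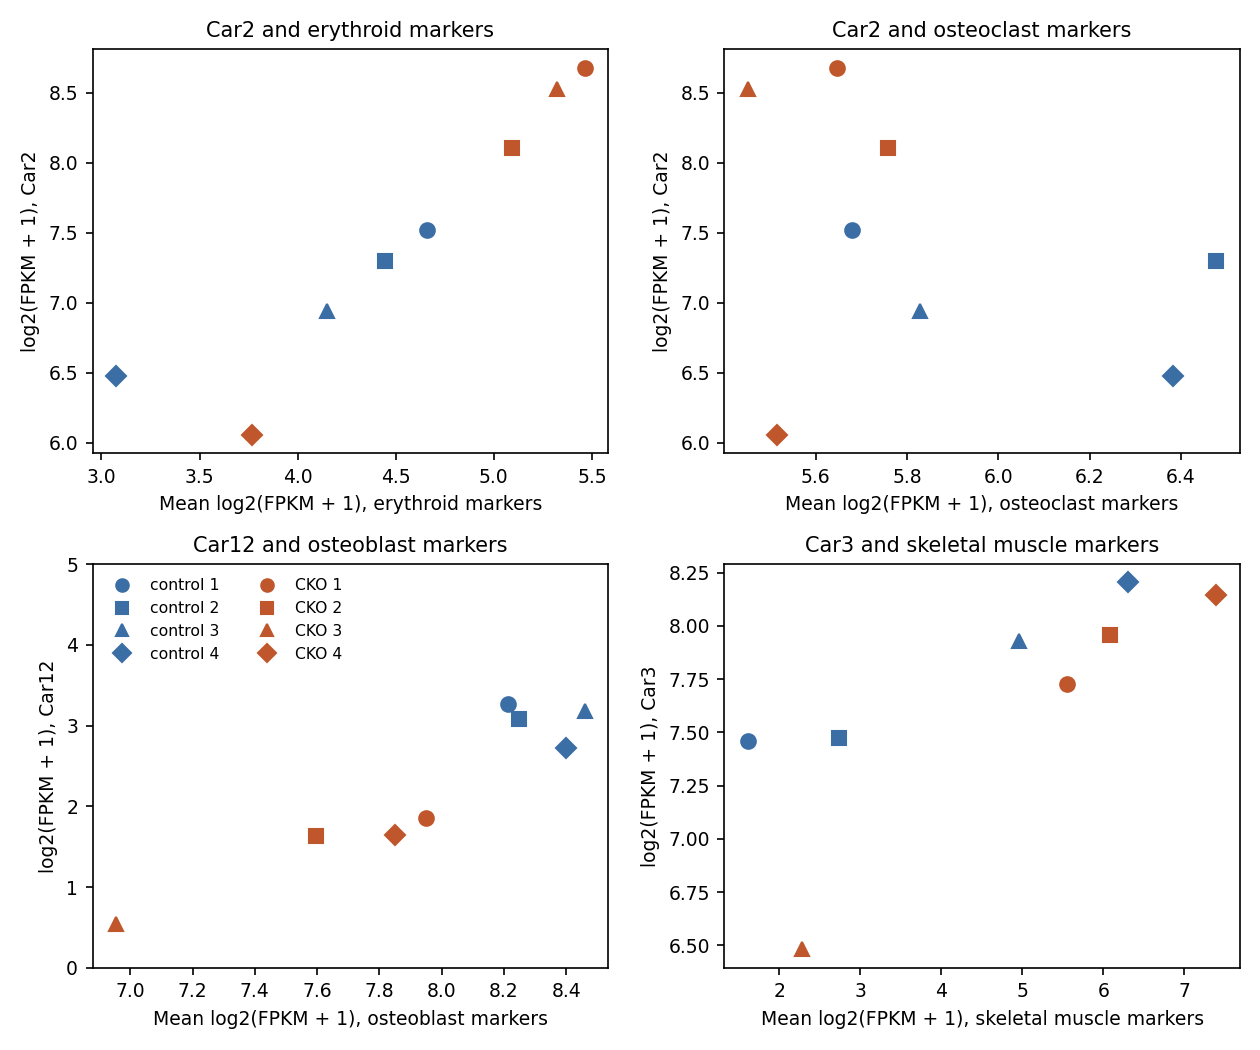
Level of a carbonic anhydrase, as log2(FPKM + 1), against the mean log2(FPKM + 1) of a marker list in the same library, with 1 point for each of 8 libraries (control in blue, CKO in orange). Car2 is higher in libraries with a higher erythroid level, which spans 3.07 to 5.46, and has no such order against the osteoclast list, and CKO replicate 3 is lowest for both Car12 and osteoblast markers.

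For each member, the 5 protein-coding genes with the most similar values were taken by Pearson r of log2(FPKM + 1) over the 8 libraries after each genotype mean was subtracted, so that the difference between genotypes did not enter. With 8205 to 8206 genes ranked over 8 libraries, r is given only as the measure of likeness. The genes most like Car2 were Hmgb3, Lpcat3, Ndc1, Hnrnpu and Cpox (r from 0.988 to 0.995). Cpox is an enzyme of heme synthesis and Hmgb3 a chromatin protein of blood progenitors. Without CKO replicate 4 none of these remained among the first 5, whose places went to Klc1, Clec1b, Gata1, Pf4 and Rhd. Gata1 is the master regulator of erythroid cells and megakaryocytes, Rhd a red-cell blood group gene, and Pf4 and Clec1b are platelet genes.

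The genes most like Car3 were Plod1, Slc35a2, Art1, Cox6a2 and Snai1 (r from 0.978 to 0.996). Art1 and Cox6a2 are typical of skeletal muscle, and Plod1 hydroxylates collagen lysines. Plod1 and Art1 remained among the first 5 without CKO replicate 4. Those most like Car12 were Txndc11, Maco1, Rhot2, Cxxc5 and Calcoco1 (r from 0.921 to 0.982), those most like Car1 were Ipo9, Kctd20, D16Ertd472e, Ago2 and Klhl12 (0.963 to 0.983), and those most like Car13 were Pgam5, Asah1, Atg12, Rbm7 and Nipsnap3b (0.996 to 0.998). Of these 15 genes only Pgam5 remained among the first 5 without CKO replicate 4.

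The 4 other carbonic anhydrases with a row were all scarce. Car7, a cytosolic form, averaged 1.81 ± 0.421 FPKM in control against 0.983 ± 0.318 FPKM in CKO (SD, n = 4 each). Its groups did not overlap, at 1.52 to 2.43 and 0.565 to 1.34 FPKM, but the log2 difference of -0.51 did not pass (SE 0.19, limma adjusted p = 0.136). Car8, a related protein without catalytic activity, averaged 1.10 ± 0.161 and 1.03 ± 0.533 FPKM (limma adjusted p = 0.841). Car9, the hypoxia-induced membrane form, averaged 0.640 ± 0.242 and 0.737 ± 0.235 FPKM, and the mitochondrial form Car5b 0.481 ± 0.0643 and 0.381 ± 0.0778 FPKM. Car9 and Car5b were too low to be tested.

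Related genes were looked at in 6 lists. These held other carbonic anhydrases, bicarbonate and anion transporters, proton and lactate exporters, osteoclast acid secretion genes, gas and water channels, and hypoxia response genes. Of the 63 tested genes 1 rose in CKO, none fell and 62 did not pass, against 4.53% called among all genes. The median log2 difference of the 63 was -0.10, beside 0.01 over all genes. Without CKO replicate 4 limma called 10 of them, among them Bsg, Slc16a1, Rhag and Higd1a, against 14.8% of all genes. The gene that rose was Higd1a, a mitochondrial protein induced by hypoxia. It went from 13.3, 7.19, 6.70 and 9.64 FPKM in control replicates 1 to 4 to 17.8, 16.1, 24.0 and 20.5 FPKM in CKO replicates 1 to 4, without overlap (log2 difference 1.04, SE 0.24, limma adjusted p = 0.0453). Its adjusted p by limma ranged from 0.0189 to 0.255 over the alternatives and it was called in 6 of 19, including the fits without control replicate 1 and without CKO replicate 4 but no other fit that left out a library. The other 21 tested genes of the hypoxia list did not pass, with 4 of the 22 at an unadjusted p under 0.05 and a median log2 difference of -0.09.

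None of 6 tested bicarbonate and anion transporters passed by limma, with 1 at an unadjusted p under 0.05. The most abundant were the red-cell exchanger Slc4a1, at 86.7 ± 41.8 FPKM in control against 153 ± 66.3 FPKM in CKO (SD, n = 4 each; limma adjusted p = 0.352), and Slc4a2, the exchanger that returns bicarbonate in osteoclasts, at 32.7 ± 6.72 and 22.7 ± 4.98 FPKM (adjusted p = 0.189). None of 8 proton and lactate exporters passed by limma, with 4 at an unadjusted p under 0.05. Among them Bsg, the chaperone of lactate transporters, averaged 203 ± 13.9 and 314 ± 20.5 FPKM (limma adjusted p = 0.0830), with no overlap between groups, and Slc16a1 14.6 ± 1.71 and 22.2 ± 8.85 FPKM (adjusted p = 0.320).

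The acid secretion machinery of osteoclasts, with which Car2 works, did not pass in any of 22 tested genes by limma, with 4 at an unadjusted p under 0.05. The median log2 difference was -0.10, with 14 below 0 and 8 above. Without CKO replicate 4 limma called Atp6v1c1, Atp6v1f and Atp6v1g1 of this list, against 14.8% of all genes. With all 8 libraries their log2 differences were -0.72, 0.85 and 0.71 (limma adjusted p = 0.0690, 0.0532 and 0.129). The proton pump subunits Atp6v0c and Atp6v0b, the most abundant, averaged 423 ± 151 and 162 ± 45.3 FPKM in control and 377 ± 114 and 241 ± 69.4 FPKM in CKO (SD, n = 4 each; limma adjusted p = 0.828 and 0.233). Of 3 tested gas and water channels none passed by limma, on the adjusted or the unadjusted p. The water channel Aqp1 averaged 113 ± 4.06 and 134 ± 48.7 FPKM (adjusted p = 0.790), and Rhag, the red-cell gas channel, 14.6 ± 5.28 and 26.4 ± 12.2 FPKM (adjusted p = 0.328). In CKO replicate 4 Aqp1 and Rhag were at 64.8 and 8.81 FPKM, below the other CKO libraries as Car1 and Car2 were.

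Marker lists moved with the genotypes as follows by limma. Over all genes 3.88% were called higher and 0.651% lower. Of 15 erythroid genes 3 rose (Epor, Rhd and Alas2), of 14 neutrophil genes 3 rose (S100a8, S100a9 and Camp), and of 7 tested adipocyte genes 1 rose (Lpl). Alas2, the first enzyme of heme synthesis in red cells, went from 53.1 ± 24.9 to 157 ± 29.3 FPKM, and Lpl, a lipase of fat and muscle, from 25.9 ± 3.51 to 44.5 ± 1.69 FPKM (SD, n = 4 each). Camp, a granule protein, went from 220.0 ± 112 to 1190 ± 465 FPKM. Of 7 tested osteocyte genes 1 fell, the receptor phosphatase Ptprz1, from 10.6 ± 4.33 to 3.84 ± 1.07 FPKM. Counts at an unadjusted p under 0.05 were 5 for erythroid, 10 for neutrophil, 3 for adipocyte and 2 for osteocyte genes. Log2 differences were above 0 for 14 of 15 erythroid, 14 of 14 neutrophil and 19 of 19 skeletal muscle genes. They were below 0 for all 7 tested osteocyte genes. The medians of these lists were 0.76, 1.35, 1.55 and -0.87 in that order. None passed among 12 osteoclast, 11 B lineage, 11 monocyte and macrophage, 19 skeletal muscle, 7 slow muscle, 6 cartilage, 12 endothelial and 12 periosteum and fibroblast genes, with 6, 2, 4, 0, 2, 0, 7 and 6 at an unadjusted p under 0.05 in that order, beside 25.3% of all genes. None of these marker calls holds in the fits in which limma called 0 genes. These were the fits without control replicate 2, 3 or 4 or without CKO replicate 1, 2 or 3, and those with median-of-ratios scaling, equal totals, the Y-linked covariate or the length trend removed. The part of these cell types in the carbonic anhydrase values was not tested, beyond the differences within a library given above.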

How the data were processed

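The deposited table holds FPKM for 14457 genes in 8 libraries, as computed by the authors per the file headers, with the authors' own p-value and log2 fold change for each gene. The submitters' processing notes name GRCm38 and, without saying what each did, DESeq2 1.20.0, featureCounts 1.5.0-p3, HISAT2 2.0.5, CASAVA 1.8 and fastp. Neither the strand setting nor the annotation is given in the sources used here. FPKM values did not fall on steps of whole reads (smallest mean distance from a whole number 0.219, against 0.25 by chance), so depth is unknown, no counting interval is given and no count model was run. Coordinates and lengths came from GENCODE M21 on GRCm38, in which 13482 genes were found.

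The 12748 genes reaching 1 FPKM in 4 or more libraries were fitted as log2(FPKM + 1) on genotype alone, using limma 3.58.1 (R 4.3.3) and its eBayes step with a trend on mean level, with Benjamini-Hochberg adjustment over all of them and a threshold of 0.05. This scale understates changes of genes with low values, Car12 included. The members, gene lists and tests were chosen with earlier results of these data known. Named genes are Slc26a2, the members, every other carbonic anhydrase and the 5 genes most like each member. Each pathway list adds up to 3 genes past the threshold or else the 2 with the highest mean. Marker genes, and the proton pump subunits Atp6v1c1, Atp6v1f and Atp6v1g1, were named after their values were seen. Alternatives were 3 scalings, a pseudocount of 0.1, no filter, a filter of 5 FPKM, replicate number as a block, covariates (Y-linked, skeletal muscle, erythroid), removal of a loess trend against transcript length, and leaving out each library. The count of called osteoblast markers is not reported here.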

Additional observations from a re-analysis of the deposited data

Results flagged for a closer look

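Among 40 groups of 4 libraries examined, 3 held a library far from the other values of its group, and about 1 group in 20 would by chance. Slc26a2 was at 7.49 FPKM in control replicate 2, against 4.37 to 4.85 FPKM in the other controls. Car2 minus the erythroid marker level was 3.40 log2 units in control replicate 4, against 2.80 to 2.86 in the other controls. Car3 minus the slow skeletal muscle level was 3.28 log2 units in control replicate 4, against 5.56 to 6.01 in the other controls. Control replicate 4 had the lowest erythroid level and the highest muscle level of the controls.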

How the results depend on the processing

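By limma, genes called between genotypes went from 578 to 0 with median-of-ratios scaling, equal totals, the Y-linked covariate and removal of the length trend (3397, 3934, 2202 and 2094 at an unadjusted p under 0.05), to 321 with quantile normalization, 381 with no filter, 274 with the replicate block, 1662 with the muscle covariate and 1746 with the erythroid covariate, and lay between 0 and 1885 when 1 library was left out. Called pathway genes went from 1 to 0 with median-of-ratios scaling, equal totals, no filter, the replicate block, the Y-linked covariate and the length trend removed, to 2 with the filter of 5 FPKM, 3 with the muscle and 6 with the erythroid covariate, and lay between 0 and 10 without 1 library; in the settings with 0, between 6 and 23 pathway genes had an unadjusted p under 0.05. Slc26a2 kept its sign but missed the threshold with median-of-ratios scaling (-1.35), equal totals (-1.65), the Y-linked covariate (-1.35) and the length trend removed (-0.96). Without 1 library it ranged from -1.56 to -1.16, and limma called it in 2 of these 8 fits. Over all alternatives with a value it was called in 8 of 18. Among the members, values moved by more than the spread between replicates for Car12 with a pseudocount of 0.1 (-2.17), Car3 with quantile normalization (-0.86) and Car2 with the erythroid covariate (-0.16). Of 90 alternative values of the levels relative to markers 2 moved so, those of Car12 with a pseudocount of 0.1 (-1.40 against osteoblast and -1.59 against osteocyte genes). The causes were not tested. For the pairing behind the replicate block, same-numbered libraries had correlations of their deviations from -0.25 to 0.43, 4 of 8 libraries correlated best with their own number, and the labels give no pairing. Car13 and Slc26a2 fell under the filter of 5 FPKM and have no value there.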

Other observations

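Car12 and Slc26a2 were both lower in every CKO library than in any control, and CKO replicate 3 had the lowest level of both. Within the controls they did not go together. Control replicate 1 had the lowest Slc26a2 there, at 4.37 FPKM, and the highest Car12, at 8.67 FPKM. The ratio of Car12 to Slc26a2 FPKM was 1.45 ± 0.457 in control and 1.28 ± 0.872 in CKO (SD, n = 4 each), and the ranges overlapped, at 0.998 to 1.99 and 0.655 to 2.57. The highest ratio was in CKO replicate 4 and the lowest in CKO replicate 3. The ratio of Car2 to Car1, both of red cells, was 2.93 to 7.52 in control and 3.31 to 7.83 in CKO, and the ratio of Car2 to Car3, which adjoin each other on chromosome 3, was 0.299 to 1.04 in control and 0.232 to 4.16 in CKO. The authors' deposited table gives log2 fold changes of 0.82 for Car2, 0.48 for Car1, -0.07 for Car3 and 0.06 for Car13.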
